A study of Mus musculus with 8 samples.

Results

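The genes described here code for the signalling proteins that act behind the inhibitory Fc receptor FcgRIIB, and for one of its ligands. They were chosen by symbol, as the rows Inpp5d, Inppl1, Inpp5k, Dok1, Dok2, Ptpn6, Ptpn11, Lyn, Btk and Fgl2 of the table, and all 10 were found among its 13204 genes. The study sorted OT-I cells, which are CD8 T cells specific for a peptide of ovalbumin, from spleens taken 14 days after a skin graft that expressed ovalbumin. The cells had been transferred 24 hours before grafting. The FcgRIIB+ group was sorted as FcgRIIB+ CD44hi Thy1.1+ CD8+ cells, and the FcgRIIB- group as FcgRIIB- CD44hi Thy1.1+ CD8+ cells. Each group holds 4 libraries of poly(A) RNA from 1000 sorted cells. Each of the 4 replicate numbers stands for one pool of 3 spleens that gave a library to both groups. Both groups therefore share the OT-I background, the transfer, the graft and the day, and no group without a graft was part of the series. The genotype of the recipient mice, whose own spleen cells surround the transferred cells, was not stated in the labels.

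FcgRIIB carries an immunoreceptor tyrosine-based inhibitory motif (ITIM) in its cytoplasmic tail. In B cells and myeloid cells, when the receptor is crosslinked by IgG complexes, the SRC family kinase LYN phosphorylates this motif, and the phosphorylated motif recruits SHIP1, which removes a phosphate from the membrane lipid PIP3 and so takes away the docking site of kinases such as BTK. The adaptors DOK1 and DOK2 bind SHIP1 and RasGAP and dampen RAS signalling, while the tyrosine phosphatase SHP-1 serves many other ITIM receptors. T cells rely mainly on LCK where B cells and myeloid cells use LYN, but they do express SHIP1, SHP-1 and DOK proteins, which restrain T cell receptor signals.

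Promoter sequences are shown for the 3 genes that were called higher with the replicate block and are in the RefSeq promoter table (Inpp5d, Btk and Fgl2), and for the most abundant of the 10, Ptpn6. Of the 10 genes 7 have an entry there; Lyn, Dok1 and Dok2 have none. Each line gives the 250 bases before the annotated start in build GRCm38.p6, 5′ to 3′ on the strand of the gene. Capitals mark GAGGAA or its reverse complement TTCCTC, the core of motifs bound by the ETS factor PU.1 of B cells and myeloid cells, searched on both strands.
Inpp5d, chr1:87620062-87620311, plus strand: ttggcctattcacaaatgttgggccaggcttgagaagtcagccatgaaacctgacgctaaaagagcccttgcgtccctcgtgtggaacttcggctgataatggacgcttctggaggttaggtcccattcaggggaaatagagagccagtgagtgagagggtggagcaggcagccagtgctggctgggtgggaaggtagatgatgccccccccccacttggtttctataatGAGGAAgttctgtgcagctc
Btk, chrX:134583141-134583390, minus strand: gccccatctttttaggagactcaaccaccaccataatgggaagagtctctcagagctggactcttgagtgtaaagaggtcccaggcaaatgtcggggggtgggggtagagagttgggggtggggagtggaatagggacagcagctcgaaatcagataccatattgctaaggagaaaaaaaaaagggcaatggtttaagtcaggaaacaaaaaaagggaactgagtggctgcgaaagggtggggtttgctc
Fgl2, chr5:21372423-21372672, plus strand: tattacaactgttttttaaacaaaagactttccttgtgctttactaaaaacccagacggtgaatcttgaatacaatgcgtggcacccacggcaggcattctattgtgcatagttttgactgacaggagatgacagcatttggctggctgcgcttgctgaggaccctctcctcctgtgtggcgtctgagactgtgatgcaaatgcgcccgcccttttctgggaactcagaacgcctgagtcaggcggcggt
Ptpn6, chr6:124738710-124738959, minus strand: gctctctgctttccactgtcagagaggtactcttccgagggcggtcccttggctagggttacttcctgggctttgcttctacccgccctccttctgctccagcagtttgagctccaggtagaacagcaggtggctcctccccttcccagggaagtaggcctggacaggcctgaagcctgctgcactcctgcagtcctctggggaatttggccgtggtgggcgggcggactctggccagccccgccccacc
The Inpp5d window holds 1 match, which starts 20 bases before the start site, and the windows of Btk, Fgl2 and Ptpn6 hold no such letters. Of the windows not shown, that of Ptpn11 holds 1 match, 150 bases before the start site, and those of Inppl1 and Inpp5k hold none. Of all 32851 windows of that length, 23.25% held at least 1 match, and so did a window of 26.12% of the 9563 tested genes with an entry. The matches are letters in a window, and binding was not measured.

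The deposited unit is RPKM (read number divided by exon length and by depth), so levels can be set side by side between genes. Depth, recovered from the steps between low values, ran from 3060000 to 22010000 reads, and in each group the replicates 1 and 2 held more reads than the replicates 3 and 4. The transcript of the sorted receptor, Fcgr2b, was at 69.9, 55.2, 39.1 and 29.6 RPKM in FcgRIIB+ replicates 1 to 4, against 3.19, 4.82, 1.82 and 4.76 RPKM in FcgRIIB- replicates 1 to 4. Transcripts that CD8 T cells express were present in every library. Cd8a lay between 153.1 and 239.5 RPKM in FcgRIIB+ and between 165.3 and 330.4 RPKM in FcgRIIB- libraries, and Cd3e between 190.6 and 372.5 RPKM in FcgRIIB+ and between 430.4 and 688.3 RPKM in FcgRIIB- libraries. Markers of other cells were present too. Of 16 dendritic cell markers 14 were called higher, with a summed level of 669.1 to 1556 RPKM in FcgRIIB+ and 38.1 to 104.2 RPKM in FcgRIIB- libraries, and of that list only Clec10a was listed at 0 in a library. Of 18 macrophage and monocyte markers 12 were called higher, with a summed level of 3553 to 4505 RPKM in FcgRIIB+ and 1771 to 3465 RPKM in FcgRIIB- libraries. Much of that sum is Ly6c2, a monocyte marker that CD8 T cells also express, at a mean of 1658 RPKM in FcgRIIB+ and 2162 RPKM in FcgRIIB- libraries. In bulk libraries, fewer cells of a type and less RNA per cell cannot be told apart, and which cells held a transcript cannot be told either.

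Among the 10 genes the kinase gene Lyn was the only one that rose in FcgRIIB+ cells in the limma fit with the group as its only term, by a log2 fold change of 2.86, or 7.28-fold on the RPKM + 1 scale. In that fit 3.03% of the 11946 genes tested were called higher and 0.268% lower. With the pool of spleens as a replicate block, 4 of the 10 were called higher, namely Lyn, Fgl2, Btk and Inpp5d, and the block called 7.22% of all genes higher. None of the 10 was called lower in either fit, where the block called 3.85% of all genes lower. At an unadjusted p under 0.05 in limma without the block, 3 of the 10 were higher and 0 lower, as were 7.48% and 4.67% of all genes. All 10 passed the filter on low values. Their median log2 fold change was 0.56, against -0.11 over all genes tested, with 6 above 0 and 4 below, where 61.2% of all genes were below. Within pools, 5 of the 10 were higher in FcgRIIB+ cells in all 4 pairs, as were 10.3% of the genes tested. Dok2 alone of the 10 was lower in all 4, as were 19.8% of the genes tested.

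**Figure D1:**
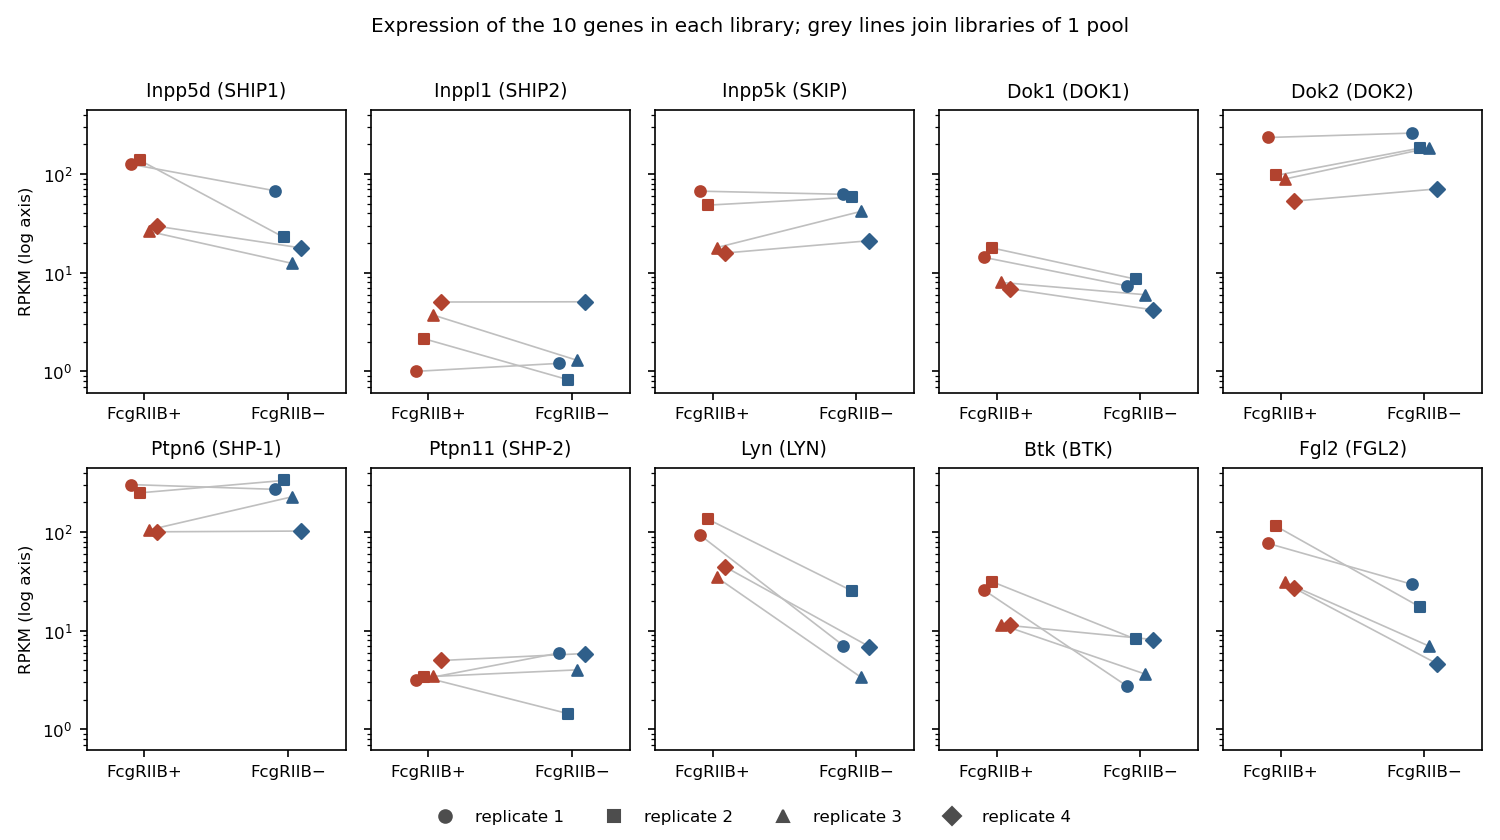
RPKM of each of the 10 genes in every library, on a log axis, with FcgRIIB+ libraries left and FcgRIIB- libraries right in each panel; symbols give the replicate number and grey lines join libraries of one pool. All 4 lines run down towards FcgRIIB- for Inpp5d, Dok1, Lyn, Btk and Fgl2, and Lyn and Btk are the genes whose groups do not overlap.

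LYN, the SRC family kinase that phosphorylates the ITIM of FcgRIIB in B cells and myeloid cells, had the largest difference of the 10 genes. Lyn (Entrez 17096) was at 93.8, 134.3, 34.7 and 44.1 RPKM in FcgRIIB+ replicates 1 to 4, against 7.06, 25.3, 3.39 and 6.90 RPKM in FcgRIIB- replicates 1 to 4. Every FcgRIIB+ library lay above every FcgRIIB- library, as for 4.61% of the genes tested; none of the 10 genes had the opposite order, shown by 4.15%. The mean was 76.7 ± 46.3 RPKM in FcgRIIB+ and 10.7 ± 9.91 RPKM in FcgRIIB- libraries (SD, n = 4 each). The log2 fold change of 2.86 had an SE of 0.57 (limma adjusted p = 0.0156, and 1.99e-08 with the replicate block). Within the pools the log2 difference was between 2.36 and 3.56. Without FcgRIIB- replicate 3, the library with the lowest Lyn value, the limma adjusted p was 0.0738 and the log2 fold change 2.51, while Lyn remained called in the other 7 fits that left out 1 library. The number of reads behind these values was highest in FcgRIIB+ replicate 2, with 10663, and lowest in FcgRIIB- replicate 4, with 76.

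BTK, the TEC family kinase that docks on PIP3 downstream of the B cell receptor and of myeloid receptors, did not pass in the fit without the block and was called higher with it. Btk (Entrez 12229) was at 25.9, 31.3, 11.5 and 11.3 RPKM in FcgRIIB+ replicates 1 to 4, against 2.72, 8.16, 3.64 and 8.13 RPKM in FcgRIIB- replicates 1 to 4. The groups did not overlap, but FcgRIIB+ replicates 3 and 4 stood close above FcgRIIB- replicates 2 and 4. By limma the log2 fold change was 1.63 with an SE of 0.43 (adjusted p = 0.0707, and 0.000859 with the replicate block), and within pools it ran from 0.43 in pool 4 to 2.85 in pool 1. The call without the block appeared when FcgRIIB+ replicate 3 or FcgRIIB+ replicate 4 was left out (limma adjusted p = 0.0459 and 0.0418). With replicates 1 and 2 alone limma put it at 2.34 (adjusted p = 0.00165), and with replicates 3 and 4 alone at 0.93 (adjusted p = 0.479). Replicates 1 and 2 alone called 7.32% of all genes higher and 1.19% lower, and replicates 3 and 4 alone 2.29% higher and 0.0921% lower, with 4 and 2 of the 10 genes called higher and 0 lower.

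SHIP1, the product of Inpp5d, is the lipid phosphatase that FcgRIIB is best known to recruit. Inpp5d (Entrez 16331) was at 125.7, 137.9, 26.3 and 29.6 RPKM in FcgRIIB+ replicates 1 to 4, against 67.7, 22.9, 12.4 and 17.9 RPKM in FcgRIIB- replicates 1 to 4. The FcgRIIB+ library was the higher of each pool, yet FcgRIIB+ replicates 3 and 4 lay below FcgRIIB- replicate 1, so the groups overlapped. The log2 fold change was 1.29 (SE 0.64), which did not pass without the block (limma adjusted p = 0.486) and was called with it (limma adjusted p = 0.00241). Within replicates 1 and 2 alone it was 1.71 (limma adjusted p = 0.0121), and within replicates 3 and 4 alone 0.86 (limma adjusted p = 0.441). With the block and any 1 pool left out, alternatives chosen after seeing the data, the log2 fold change stayed between 0.87 and 1.48 and was called in 4 of 4 fits. Lyn, Btk and Fgl2 were called in those 4 fits too.

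The other inositol phosphatases of the list passed in neither fit. SHIP2, the product of Inppl1, is a relative of SHIP1 that is found in many tissues. Inppl1 (Entrez 16332) was the least abundant of the 10 genes, at 1.00, 2.14, 3.74 and 5.05 RPKM in FcgRIIB+ replicates 1 to 4, against 1.21, 0.825, 1.30 and 5.08 RPKM in FcgRIIB- replicates 1 to 4. Replicate 4 held the highest value of each group, and the log2 fold change of 0.42 (95% interval -0.61 to 1.45) rested on 50 to 246 reads per library. SKIP, the product of Inpp5k, also acts on PIP3 and is known for work on insulin signalling in muscle. Inpp5k (Entrez 19062) was at 67.2, 48.5, 18.0 and 15.9 RPKM in FcgRIIB+ replicates 1 to 4, against 62.4, 58.2, 41.8 and 21.1 RPKM in FcgRIIB- replicates 1 to 4. In both groups replicates 1 and 2 were its highest libraries, with a log2 fold change of -0.43 (95% interval -1.55 to 0.70) whose sign turned when libraries were scaled to T cell genes.

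The adaptors DOK1 and DOK2 are close relatives that both restrain T cell receptor signalling, and their estimates had opposite signs, neither of which passed. Dok1 (Entrez 13448) was at 14.4, 17.8, 7.98 and 6.89 RPKM in FcgRIIB+ replicates 1 to 4, against 7.35, 8.60, 6.00 and 4.21 RPKM in FcgRIIB- replicates 1 to 4. It was higher in all 4 pools by a log2 difference of 0.36 to 0.97, with a log2 fold change of 0.70 (SE 0.35; limma adjusted p = 0.489, and 0.0927 with the replicate block). Dok2 (Entrez 13449) was far more abundant, at 235.1, 97.1, 89.3 and 53.2 RPKM in FcgRIIB+ replicates 1 to 4, against 260.5, 183.7, 183.9 and 70.9 RPKM in FcgRIIB- replicates 1 to 4. It was lower in all 4 pools by a log2 difference between -0.15 and -1.03, with a log2 fold change of -0.63 (SE 0.53; limma adjusted p = 0.802, and 0.127 with the block) whose sign turned when libraries were scaled to T cell genes. In the same libraries 15 T cell identity genes, Lck among them, had a median log2 fold change of -0.95, with 15 of 15 below 0, 0 called without the block and 6 called lower with it.

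SHP-1, encoded by Ptpn6, is the tyrosine phosphatase that most ITIM receptors of blood cells recruit, and Ptpn6 was the most abundant of the 10 genes in both groups. Ptpn6 (Entrez 15170) was at 302.5, 249.6, 104.8 and 100.5 RPKM in FcgRIIB+ replicates 1 to 4, against 270.7, 333.2, 228.0 and 102.3 RPKM in FcgRIIB- replicates 1 to 4. The groups overlapped over most of their range, and the log2 fold change was -0.35 (95% interval -1.48 to 0.78), positive when libraries were scaled to T cell genes. SHP-2, encoded by Ptpn11, is its widely expressed relative, known for promoting RAS signalling as well as for binding inhibitory receptors. Ptpn11 (Entrez 19247) was at 3.13, 3.38, 3.43 and 4.99 RPKM in FcgRIIB+ replicates 1 to 4, against 5.95, 1.44, 4.00 and 5.87 RPKM in FcgRIIB- replicates 1 to 4. Neither group stood above the other, and the log2 fold change was -0.07 (95% interval -0.88 to 0.74). Neither phosphatase gene passed with the block (limma adjusted p = 0.511 for Ptpn6 and 0.941 for Ptpn11).

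FGL2 is a secreted fibrinogen-like protein, made by regulatory T cells and macrophages among other cells, that binds FcgRIIB. Fgl2 (Entrez 14190) was at 76.8, 114.0, 30.9 and 27.2 RPKM in FcgRIIB+ replicates 1 to 4, against 29.6, 17.3, 6.99 and 4.60 RPKM in FcgRIIB- replicates 1 to 4. The FcgRIIB+ library was the higher of each pool, by a log2 difference of 1.35 to 2.65, and the groups overlapped only because FcgRIIB+ replicate 4 lay below FcgRIIB- replicate 1. By limma the log2 fold change was 2.08 with an SE of 0.59 (adjusted p = 0.103), and it was called higher with the block (limma adjusted p = 2.41e-06). Without FcgRIIB- replicate 1 it was called without the block as well (limma adjusted p = 0.0449). It was called within replicates 1 and 2 alone (1.997, limma adjusted p = 0.00142) and within replicates 3 and 4 alone (2.16, limma adjusted p = 0.00802).

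**Figure D2:**
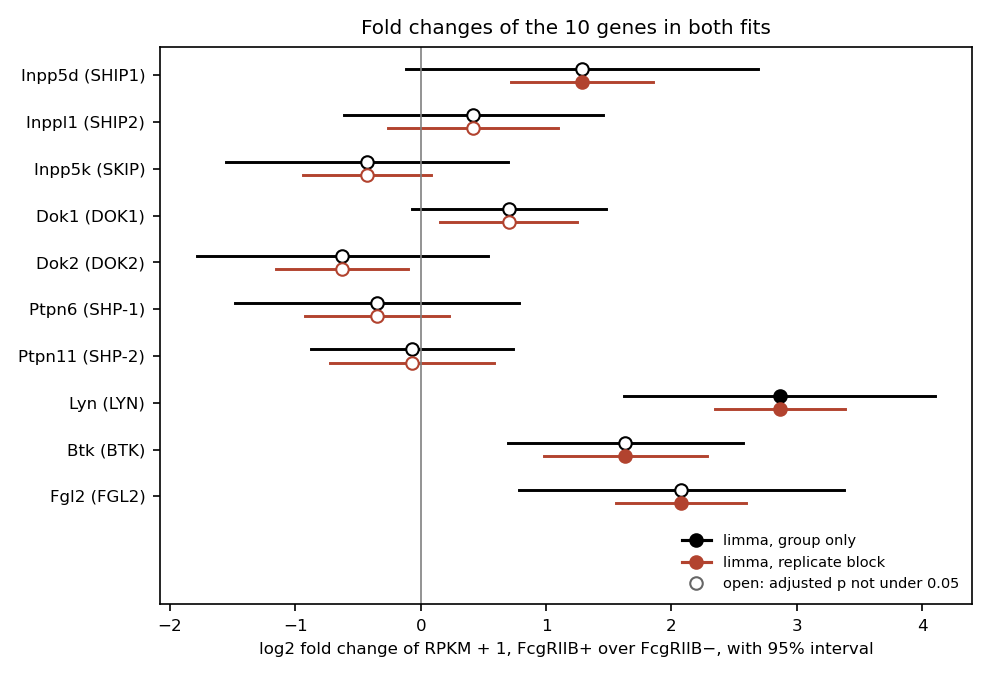
Log2 fold change of RPKM + 1, FcgRIIB+ over FcgRIIB-, of the 10 genes with its 95% interval in the limma fit without (black) and with (red) the replicate block; filled points have an adjusted p under 0.05. The block leaves each estimate in place and narrows its interval, so that Inpp5d, Btk and Fgl2 join Lyn, while the points of the 6 others are unfilled.

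Within a group, replicates 1 and 2 often stood apart from replicates 3 and 4. In FcgRIIB+ cells replicates 1 and 2 both lay above replicates 3 and 4 for 8 of the 10, as for 40.4% of the genes tested, and in FcgRIIB- cells for 6 of the 10, as for 26.3%. In FcgRIIB+ cells Inpp5d had the widest step on the log2 scale, with a mean of 131.8 RPKM in FcgRIIB+ replicates 1 and 2 and 27.9 RPKM in FcgRIIB+ replicates 3 and 4. In FcgRIIB- cells its means were 45.3 RPKM in replicates 1 and 2 and 15.1 RPKM in replicates 3 and 4, and there Fgl2 had the wider step, with 23.5 RPKM in replicates 1 and 2 and 5.80 RPKM in replicates 3 and 4. The opposite order was shown by 2 of the 10 in FcgRIIB+ cells, Inppl1 and Ptpn11, as by 33.4% of the genes tested, and by Inppl1 alone in FcgRIIB- cells, as by 26.4%. Inppl1 in FcgRIIB+ cells had 1.57 RPKM in replicates 1 and 2 and 4.40 RPKM in replicates 3 and 4. The labels name no batch for these replicates, depth differs in the same way, and its part in these steps was not tested.

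By mean level the order in FcgRIIB+ cells was Ptpn6 (189.3 RPKM), Dok2 (118.7 RPKM), Inpp5d (79.9 RPKM), Lyn (76.7 RPKM), Fgl2 (62.2 RPKM), Inpp5k (37.4 RPKM), Btk (20.0 RPKM), Dok1 (11.8 RPKM), Ptpn11 (3.73 RPKM) and Inppl1 (2.98 RPKM). The ranges over 4 libraries overlapped between neighbours in this order everywhere but between Dok1 and Ptpn11. In FcgRIIB- cells the order was Ptpn6 (233.5 RPKM), Dok2 (174.7 RPKM), Inpp5k (45.9 RPKM), Inpp5d (30.2 RPKM), Fgl2 (14.6 RPKM), Lyn (10.7 RPKM), Dok1 (6.54 RPKM), Btk (5.67 RPKM), Ptpn11 (4.32 RPKM) and Inppl1 (2.10 RPKM). There the only neighbours whose ranges did not overlap were Dok2 and Inpp5k. Among all genes tested, Lyn stood at percentile 90.6 of the mean level in FcgRIIB+ and 56.7 in FcgRIIB- cells, and Btk at percentile 71.1 in FcgRIIB+ and 40.4 in FcgRIIB- cells. Ptpn6 stood at percentile 95.8 in FcgRIIB+ and 96.5 in FcgRIIB- cells.

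Ratios within a library do not depend on how that library was scaled, apart from the 1 RPKM added to each value, and are given as descriptions with no test. The ratio of Lyn to Lck, the SRC family kinase of T cells, was 0.158, 0.456, 0.107 and 0.180 in FcgRIIB+ replicates 1 to 4, against 0.0107, 0.0322, 0.00555 and 0.0174 in FcgRIIB- replicates 1 to 4. The groups did not overlap, and Lck remained the more abundant kinase in all 8 libraries, with means of 369.8 RPKM in FcgRIIB+ and 703.2 RPKM in FcgRIIB- libraries.

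Within the paralog pairs, the ratio of Dok1 to Dok2 was 0.0650, 0.192, 0.0995 and 0.146 in FcgRIIB+ replicates 1 to 4, against 0.0319, 0.0520, 0.0378 and 0.0724 in FcgRIIB- replicates 1 to 4. It was higher in FcgRIIB+ cells in all 4 pools, while Dok2 was the major form in every library. The ratio of Inpp5d to Inppl1 was 63.3, 44.2, 5.76 and 5.06 in FcgRIIB+ replicates 1 to 4, against 31.1, 13.1, 5.83 and 3.10 in FcgRIIB- replicates 1 to 4. SHIP1 was thus the major form at the RNA level in all 8 libraries, by a margin that varied more between replicates than between groups. The ratio of Ptpn6 to Ptpn11 was between 17.0 and 73.5 in FcgRIIB+ and between 15.0 and 136.8 in FcgRIIB- libraries, higher in FcgRIIB+ cells in 2 of 4 pools.

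**Figure D3:**
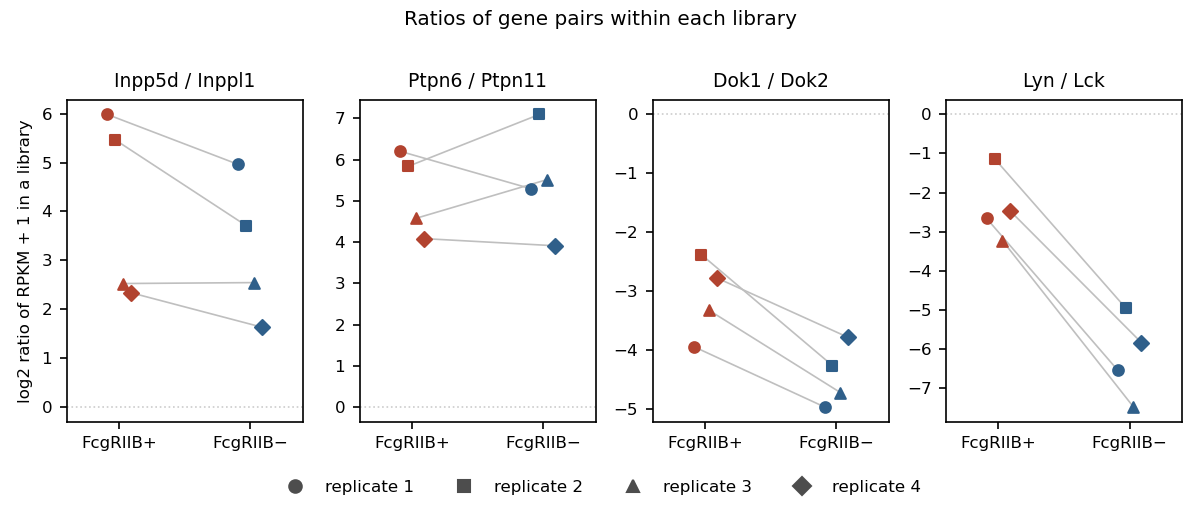
Log2 ratio of RPKM + 1 of gene pairs within each library, FcgRIIB+ libraries left and FcgRIIB- libraries right, with symbols for replicates and grey lines joining libraries of one pool. Lyn over Lck separates the groups, Dok1 over Dok2 is higher in FcgRIIB+ in every pool with some overlap, and Ptpn6 over Ptpn11 crosses.

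The other genes of the pathway were counted by list, starting with the receptors. Of 5 Fc gamma receptor genes, including the shared signalling chain Fcer1g, 4 rose and all 5 were called with the block. These counts include Fcgr2b, on whose protein the cells were sorted, so its rise is no separate result. Of all genes tested 3.03% were called higher without the block and 7.22% with it. Of 19 genes for receptors with an ITIM that recruit SHP-1, SHP-2 or SHIP1, 8 rose and none fell, with a median log2 fold change of 0.79. The 4 with the smallest p were Clec12a (3.18), Sirpa (2.98), Clec4a2 (2.37) and Cd300a (2.18), receptors of myeloid cells. Clec12a averaged 62.6 ± 11.7 RPKM in FcgRIIB+ and 8.04 ± 8.13 RPKM in FcgRIIB- libraries (SD, n = 4 each; limma adjusted p = 0.00429). With the block 9 were called higher and 3 lower, and those 3 were Cd22, Cd72 and Cd5, named after their values were seen. Cd5, an inhibitory receptor of T cells, averaged 40.4 RPKM in FcgRIIB+ and 102.6 RPKM in FcgRIIB- libraries (blocked limma adjusted p = 0.000269).

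The other genes of the SRC family and its regulators, 14 tested, had a median log2 fold change of -0.31, with 5 above 0 and 9 below. With the block Fgr, a kinase of myeloid cells, was called higher (1.78) and Fyn (-1.06) and Lime1 (-0.93) lower, all 3 named after their values were seen. Fyn, a SRC family kinase of T cells, averaged 45.4 ± 8.11 RPKM in FcgRIIB+ and 97.4 ± 26.1 RPKM in FcgRIIB- libraries (SD, n = 4 each; blocked limma adjusted p = 0.00394). Of 5 TEC and SYK family genes none passed without the block (0 at limma adjusted p under 0.05), and with it Syk was called higher (1.55) and the T cell kinases Txk (-1.11) and Zap70 (-0.89) lower, Zap70 being named after its value was seen.

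Of 25 genes for PI3-kinase subunits and proteins that act through PIP3, 2 rose and none fell. Pik3cb, a catalytic subunit, averaged 20.9 ± 16.3 RPKM in FcgRIIB+ and 2.89 ± 1.57 RPKM in FcgRIIB- libraries (log2 fold change 2.33, limma adjusted p = 0.0148). Plcg2, the phospholipase that BTK activates in B cells, averaged 33.5 ± 22.2 RPKM in FcgRIIB+ and 6.90 ± 2.53 RPKM in FcgRIIB- libraries (log2 fold change 1.98, limma adjusted p = 0.0324). With the block Pik3ap1 and Lat2 joined them, Lat2 being named for that value. Of 16 other phosphoinositide phosphatase genes 1 fell, Inpp4b, whose product acts on the lipid that SHIP1 makes. Inpp4b averaged 4.59 ± 1.54 RPKM in FcgRIIB+ and 12.3 ± 2.63 RPKM in FcgRIIB- libraries (log2 fold change -1.27, limma adjusted p = 0.0427), and the median of that list was 0.06. With the block the call on Synj1 was higher; it is named here because of that value.

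None of 19 other genes of the DOK family, RasGAPs and adaptors passed without the block, and the median was -0.03. With it Sh2d1b1, Cd2ap and Gab2 were called higher and Sh2d1a and Rasal3 lower, of which Gab2, Sh2d1a and Rasal3 were named after their values were seen. Sh2d1a, the adaptor SAP of T cell SLAM receptors, averaged 92.2 RPKM in FcgRIIB+ and 258.5 RPKM in FcgRIIB- libraries. None of 14 other tyrosine phosphatase genes passed without the block (median -0.29), with Ptprj at 1.00 and Ptpro at 1.19. With it Ptpre was called higher and Ubash3a lower, both named after their values were seen. Of the fibrinogen-related genes Fcna and Fcnb alone were tested, and Fcna, a ficolin of macrophages, rose to 146.1 RPKM in FcgRIIB+ libraries, against 31.0 RPKM in FcgRIIB- libraries (log2 fold change 2.34, limma adjusted p = 0.00984).

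**Figure D4:**
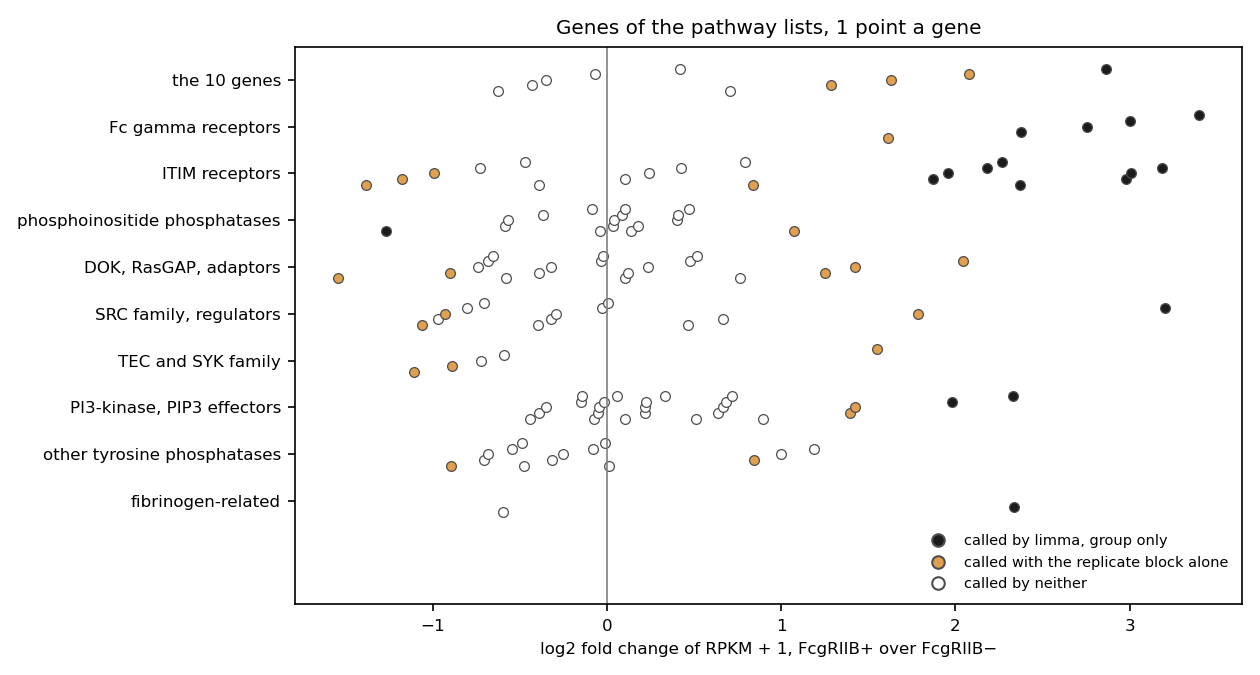
Log2 fold change of RPKM + 1, FcgRIIB+ over FcgRIIB-, of every tested gene of the 10 and of 9 pathway lists, 1 point a gene, with black points called by limma without the block, orange points called with the replicate block alone and white points called by neither. Calls without the block stand mostly in the receptor lists, and Pik3cb, Plcg2, Inpp4b and Fcna are among those outside them.

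Among the markers of other cells that the gate could hold, those of dendritic cells and of macrophages and monocytes moved with the genes called higher, and their part in those results was not tested. With the block 15 of 16 and 15 of 18 of them were called higher. Dendritic cell markers had a median log2 fold change of 3.76 and macrophage and monocyte markers of 2.75, larger than those of Inpp5d, Btk and Fgl2. B cell markers, whose cells also carry FcgRIIB, LYN and BTK, had a median of -0.77 over 8 tested, with 0 of 8 above 0, 0 called without the block and 2 called lower with it. Their summed level was 73.9 to 205.6 RPKM in FcgRIIB+ and 99.2 to 462.2 RPKM in FcgRIIB- libraries, highest in FcgRIIB- replicate 2. Of the FcgRIIB- libraries, replicate 2 also had the highest Lyn value and the highest mean log2(RPKM + 1) of the macrophage and monocyte markers. Its summed level of granulocyte, basophil and mast cell markers, 1364 RPKM, was the highest of that group too. The Btk value of FcgRIIB- replicate 2, 8.16 RPKM, was about level with the 8.13 RPKM of FcgRIIB- replicate 4, where B cell markers summed to 140.1 RPKM. The part of these markers in the Lyn and Btk values was not tested. Of 9 granulocyte, basophil and mast cell markers 2 rose, Mcpt8 and Fcer1a, each listed at 0 in a FcgRIIB- library, and 6 were called higher with the block, with a summed level of 128.8 to 1815 RPKM in FcgRIIB+ and 165.6 to 1364 RPKM in FcgRIIB- libraries. Of 8 NK cell markers Fcer1g rose and Eomes, which CD8 T cells also express, fell, the list having a median of 0.26 on the log2 scale. The block called 2 of them higher and 2 lower. Their summed level was 1199 to 6018 RPKM in FcgRIIB+ and 772.3 to 1088 RPKM in FcgRIIB- libraries, in FcgRIIB+ replicates 3 and 4 mostly from Fcer1g and Tyrobp, adaptors that myeloid cells share, while Ncr1, Klrb1c, Gzma and Itga2 overlapped between the groups. T cell identity genes summed to 2187 to 4830 RPKM in FcgRIIB+ and 5752 to 9367 RPKM in FcgRIIB- libraries.

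Scaled to the T cell identity genes of each library, 5 of the 10 genes were called higher without the block, namely Lyn (3.77), Fgl2 (2.99), Btk (2.54), Inpp5d (2.20) and Dok1 (1.61), where 8.66% of all genes were called higher and 0.0167% lower. With the block as well 7 of the 10 were called higher, where 49.5% of all genes were, and 0 lower, where 0.142% were. After quantile normalization Lyn and Btk were called higher, with 3.88% of all genes higher and 0.502% lower. Scaling to T cell genes moved the median of all genes to 0.80, against -0.11 in the deposited scale. Relative to that median of all genes, Ptpn6, Inpp5k and Dok2, at 0.56, 0.48 and 0.28, lay below and Ptpn11, at 0.84, about level. The signs of these 4 therefore depend on the scale chosen.

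**Figure D5:**
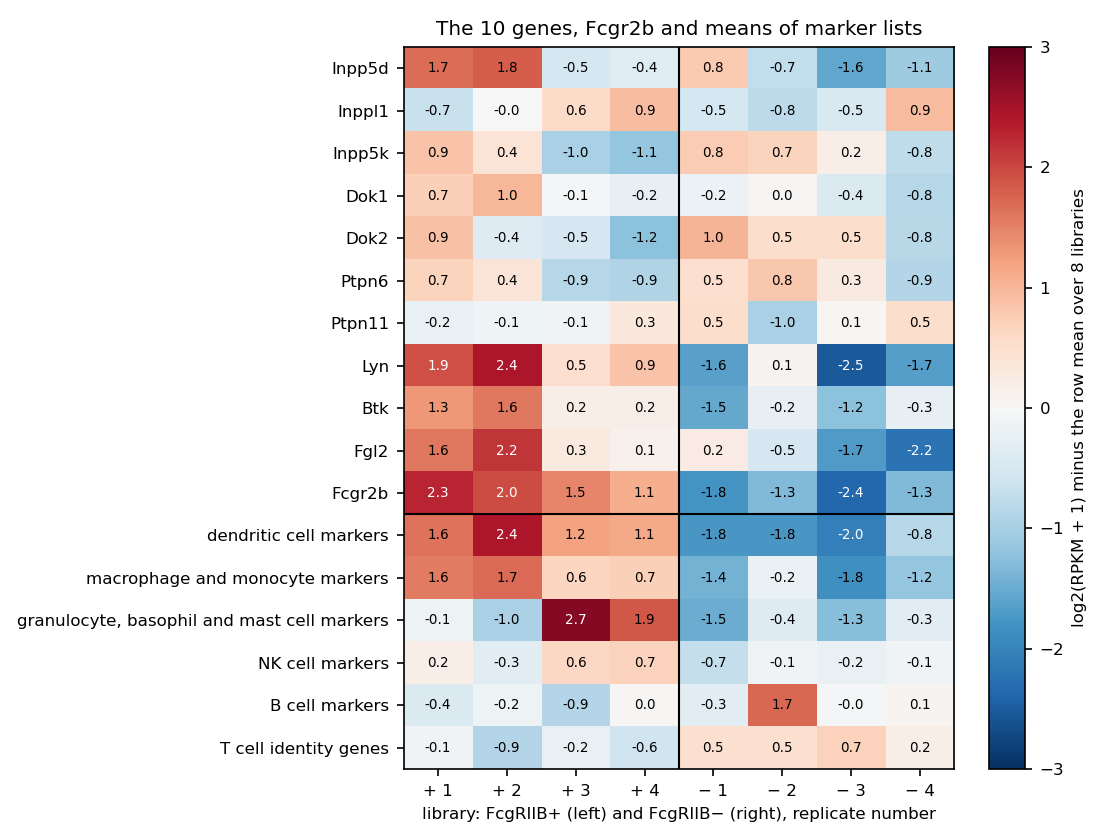
Log2(RPKM + 1) of the 10 genes and Fcgr2b, and the mean over each list of cell type markers, in every library minus the mean of the row over 8 libraries, with FcgRIIB+ libraries left of the line and FcgRIIB- libraries right. Lyn, Fgl2 and Btk mostly share their colours with Fcgr2b and the dendritic cell and macrophage rows. Fgl2 in FcgRIIB- replicate 1 and Lyn in FcgRIIB- replicate 2 are exceptions that lie above their row means. Dok2, Inpp5k and Ptpn6 are bluest in replicates 3 and 4 of FcgRIIB+ and in replicate 4 of FcgRIIB-.

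The genes whose pattern over the 8 libraries was most like that of each of the 10 were ranked by the root mean square difference of log2(RPKM + 1) after subtracting the mean of each gene. For Lyn they were Trf, Cfp and Pirb, at differences of 0.22, 0.23 and 0.26, against a spread of 1.67 of Lyn around its own mean. Of the genes tested 31.7% differed from Lyn by no more than that spread, and the nearest were picked from all of them. For Btk they were Gcnt2, Siglece and Pira2 (0.16, 0.19 and 0.21), and for Fgl2 Man2b1, Cd86 and Myadm (0.26, 0.37 and 0.38). For Inpp5d they were Hps5, Fam129a and Pik3ap1, an adaptor that links B cell and myeloid receptors to PI3-kinase, at 0.15, 0.23 and 0.25. Pde4b and Matk were among the 3 nearest to Dok1 (0.11 and 0.12). Dok2 was most like Il7r, Armc7 and Klhl6 (0.18, 0.20 and 0.21). Ptpn6 and Inpp5k shared Abcf3 among their nearest, at 0.08 and 0.11, with Tapbpl (0.07) and Actr8 (0.11) for Ptpn6 and Lgals8 (0.10) and Lgals3bp (0.12) for Inpp5k. The low genes Inppl1 and Ptpn11 were most like Mesdc1, Ube2o and Zfp703, and Gabpb2, Acin1 and Adnp, at 0.12 to 0.13 and 0.20.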

How the data were processed

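Poly(A) RNA was turned into 8 libraries, 4 a group, with SMART-seq v4 and then NexteraXT reagents, per the labels' protocols. The values are RPKM, 1 column per library, as the authors deposited them, per the file headers. TopHat2 and mm9 come up in the submitters' processing notes. The counter, the annotation and the use of strand are not given in the sources used here, so reads of overlapping or antisense genes may be included. The table also gives exon lengths, per the file headers. Symbols of 21 genes turned into dates by a spreadsheet were restored through their Entrez IDs, of which 13187 of 13204 matched the GRCm38.p6 gene table.

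The depth was found as the number of reads at which RPKM times length came out whole. In each library 99.95% to 100% of the values that could be checked were whole within 0.1 reads. RPKM are not counts, so limma 3.58.1 under R 4.3.3 (lmFit, eBayes with a trend) was run on log2(RPKM + 1), two-sided, with the group as the only term. Fold changes on this scale understate the change of low genes. The 11946 genes that reached 1 RPKM in 4 or more libraries were tested and 1258 left out; their p-values were adjusted together (Benjamini-Hochberg), with calls at 0.05. The fit was tested on simulated data. Precision is set by the spread between libraries, since reads from amplified cDNA are not independent molecules.

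The series design text states that libraries of both groups with one replicate number came from one pool. Over the genes tested, the correlation of their deviations around group means was 0.70, 0.41, 0.56 and 0.68 in pairs 1 to 4. Libraries of unlike replicate number were not set beside them, so these values are no check of the pairing. Blocked values stand beside a result where they change its call.

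The 10 genes and all lists were chosen with earlier results of these data known. Named were the 10, Fcgr2b, Lck, up to 4 called members of each list by smallest p (or else the 2 smallest), and the 3 genes most like each of the 10; some genes that this rule takes in are not reported here. Single markers of cell types (such as Cd8a, Cd3e, Ly6c2, Lyz2, Cd68, C1qb, Tyrobp and Ncr1) were added after their values were seen. Lists share some genes, such as Sirpa, Btla and Fcer1g. Alternatives were the block, pseudocounts of 0.1 and 0.5, no filter, quantile, median-ratio and T cell gene scaling, no trend, each library left out and replicates 1 and 2 or 3 and 4 alone. Chosen after seeing the data were the block with a pool left out and the block with T cell gene scaling.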

Additional observations from a re-analysis of the deposited data

Results flagged for a closer look

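In 32 groups of 4 values tested for a single distant library, 3 stood out, where chance alone marks about 1 in 20. Lyn in FcgRIIB- cells was at 25.3 RPKM in replicate 2 and between 3.39 and 7.06 RPKM in the other libraries, a gap of 0.833 of the whole range. Without that library the log2 fold change of Lyn was 3.37 (limma adjusted p = 0.00478). In the same library the B cell markers summed to 462.2 RPKM, against 99.2 to 206.6 RPKM in the other FcgRIIB- libraries. The mean log2(RPKM + 1) of the macrophage and monocyte markers was also higher in that library than in FcgRIIB- replicates 1, 3 and 4 (3.77, 3.35 and 4.03). Among them C1qb was at 116.2 RPKM in replicate 2 and between 23.5 and 59.5 RPKM in the other FcgRIIB- libraries, Lyz2 was at 855.6 RPKM in replicate 2 and between 84.3 and 129.9 RPKM in the other FcgRIIB- libraries, and Cd68 at 46.8 RPKM in replicate 2 and between 9.50 and 20.6 RPKM in the others. C1qb, Lyz2 and Cd68 were picked after their values were seen. Adgre1 of the same list was at 8.45 RPKM in FcgRIIB- replicate 2 and 7.83 RPKM in replicate 4. The macrophage and monocyte markers summed to 2923 RPKM in FcgRIIB- replicate 2, against 1771, 3465 and 2798 RPKM in replicates 1, 3 and 4. The part of the B cell, macrophage and monocyte markers in the Lyn value was not tested. Inppl1 in FcgRIIB- cells was at 5.08 RPKM in replicate 4, the shallowest library with 3060000 reads, and between 0.825 and 1.30 RPKM in the others, a gap of 0.888 of the range. In FcgRIIB- replicate 4 the median ratio of genes to their geometric mean over 8 libraries was 1.24, against 0.949 to 1.03 in the others. The part of that shift in the Inppl1 value was not tested. Ptpn11 in FcgRIIB+ cells was at 4.99 RPKM in replicate 4 and between 3.13 and 3.43 RPKM in the others, a gap of 0.836 of the range.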

How the results depend on the processing

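Replicate block: with the pool as a block 863 genes were called higher and 460 lower, against 362 and 32 without it, and 4 of the 10 genes higher against 1; all 394 calls without the block were among those with it. Scaling to T cell identity genes called 1034 higher and 2 lower (5 of the 10 higher), and together with the replicate block 5909 and 17 (7 of the 10 higher, in a fit where 49.5% of all genes were). Replicates 1 and 2 alone gave 875 and 142 (4 of the 10), replicates 3 and 4 alone 273 and 11 (2 of the 10). Quantile normalization gave 463 and 60 (2 of the 10), and the lower count was 19 after median-ratio scaling and 19 without a trend. With 1 library left out the higher count was 178 to 503, the lower count 5 to 45 and the number of the 10 called higher 0 to 2; with the block and 1 pool left out the higher counts were 576, 800, 617 and 1242 and the lower counts 261, 350, 157 and 458 without pools 1, 2, 3 and 4, and 4 of the 10 were called higher each time. None of the 10 was called lower in any of these fits.

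Of the 10 genes Lyn was called in 22 of 23 alternatives, all but the one without FcgRIIB- replicate 3, with log2 fold changes of 2.51 to 3.77. Btk was called in 11, Fgl2 in 10, Inpp5d in 8, Dok1 in 2 and Ptpn6 and Inppl1 in 1 each. Lyn, Btk, Fgl2, Inpp5d, Dok1 and Inppl1 kept their direction in all 23. The sign turned for Inpp5k (0.48), Dok2 (0.28), Ptpn6 (0.56) and Ptpn11 (0.84) when scaled to T cell identity genes, with and without the block, a scaling that shifts all genes of a library alike. That of Ptpn11 also turned within replicates 1 and 2 (0.046), with the block without replicate 1 (0.16), without FcgRIIB- replicate 1 (0.10) and without FcgRIIB- replicate 4 (0.09), in a range of -0.41 to 0.10 with 1 library left out, for which the cause was not tested. Depth limits the values of FcgRIIB- replicate 4 in particular, the shallowest library, which had 46 reads on Dok1, 53 on Fgl2, 63 on Btk and 76 on Lyn; Inppl1 had 50 in FcgRIIB- replicate 3.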
